A study of Mus musculus with 9 samples.

Results

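The genes described here encode the motors that move cargo along microtubules: the kinesin heavy chains, their light chains, cytoplasmic dynein and the dynactin subunits. Members were taken by symbol, as every Kif gene with a number after the prefix, every Dync and Dynl gene, Klc1 to Klc4 and Dctn1 to Dctn6. This gave 65 of the 22609 genes in the files, 42 of them kinesin heavy or light chains and 23 dynein or dynactin subunits. They were measured by RNA sequencing in hind paw skin punches, in L3 to L5 dorsal root ganglia (DRG) and in the lumbar spinal cord of C57 mice, all male and 8 to 12 weeks old. The DRG hold the cell bodies of sensory neurons, whose axons run to the skin on one side and to the spinal cord on the other. All 9 samples, 3 per tissue, came from mice given 2 intraperitoneal injections of paclitaxel at 2 mg/kg a day apart, a drug that stabilises microtubules, together with an antagonist of the lymphotoxin-beta receptor. The antagonist was given at 15 µg into the hind paw and 15 µg into the spinal canal, on days 1 and 4 per the sample titles, and tissue was taken 6 days after the last paclitaxel dose. The series text instead puts it between both paclitaxel doses and again a day later, so the labels differ on its timing. IgG-injected control mice are not analysed here. All comparisons are between tissues with the same treatment history, so neither drug's effect could be tested.

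Kinesins use ATP to step along microtubules, most of them toward the plus end, which in axons points away from the cell body. Cytoplasmic dynein, activated by dynactin, steps toward the minus end and carries endosomes and growth factor signals from the axon tip back to the cell body. Other kinesins work in the mitotic spindle, in cilia or at microtubule ends and have little part in axonal transport.

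Levels are CPM (counts scaled to library size), given as mean ± SD over the 3 samples of a tissue (n = 3). Fold changes are on the log2 scale with their standard error, and a gene was called where edgeR's quasi-likelihood test gave a Benjamini-Hochberg adjusted p under 0.05 over all tested genes. Libraries held 15537545 to 23229724 reads on genes, and 3 reads corresponded to 0.134 to 0.185 CPM. Whether each sample is a different mouse is not stated in the labels, so p-values measure only the spread between these samples. In whole tissue, fewer cells of a type and less RNA per cell cannot be told apart. Of the marker lists, 8 keratinocyte genes summed to 38200 to 57500 CPM in paw, 8 sensory neuron genes to 4810 to 5640 CPM in DRG and 6 astrocyte genes to 3820 to 4120 CPM in spinal cord. The astrocyte genes also summed to 491 to 661 CPM in paw, mostly from Gja1 (514 ± 90.6). Muscle RNA was present too: 6 skeletal muscle genes summed to 13300 to 17000 CPM in paw and to 606, 943 and 31.6 CPM in DRG 1 to 3. The part of muscle in the member levels was not tested. The 8 pan-neuronal genes summed to 65.4 to 83.7 in paw, 12200 to 14800 in DRG and 6350 to 8280 CPM in spinal cord, and their part in the differences below was not tested.

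Of the 65 members, 58 had enough reads to be tested. The other 7 were Dynlt1c, Dynlt1e, Dynlt1f and Kif2b, with 0 reads in every library, and Kif12, Kif4b and Dynlt1b, with 2, 2 and 11 reads over all 9 libraries. The Dynlt1 genes are near-identical copies, and reads with several alignments were not counted, so these zeros do not show absence. Between paw and DRG, 50 members were called, 20 higher and 30 lower in paw, which is 86.2% against 80.5% of all tested genes. Between paw and spinal cord, 51 were called, 19 higher and 32 lower in paw, or 87.9% against 81.6%. Between DRG and spinal cord, 38 were called, 26 higher and 12 lower in DRG, or 65.5% against 59.6%. With no limit on fold, the shares called were near the background in all 3 comparisons. At 2-fold or more, 43, 42 and 20 of the 58 tested members were called, against 53.2%, 54.4% and 28.4% of all tested genes. These were larger shares than the background, most clearly in both paw comparisons. The median member lay at −0.91 in paw against DRG, −0.60 in paw against spinal cord and 0.31 in DRG against spinal cord, where the median of all tested genes lay at −0.02, −0.03 and −0.02. By tissue, 19 members were called above both other tissues in paw, 32.8% of those tested, against 32.4% of all genes. In DRG the number was 21, or 36.2% against 15.9%, and in spinal cord it was 8, or 13.8% against 19.5%. In paw, 27 members were called below both nervous tissues, or 46.6% against 32.9%. Both comparisons behind each such count share the samples of that tissue.

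**Figure D1:**
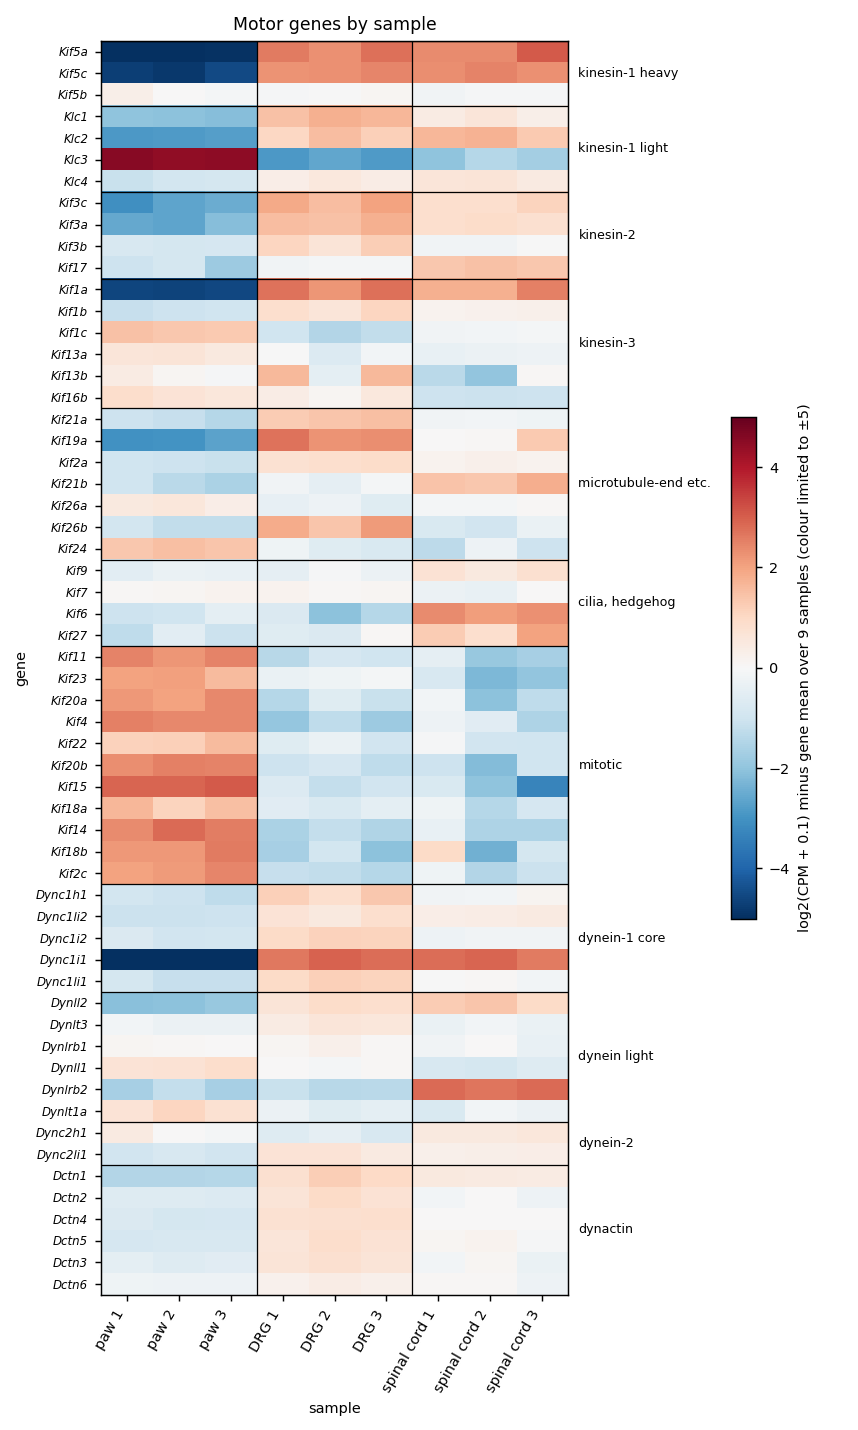
Heat map of the 58 tested motor genes (rows, grouped by role) in the 9 samples (columns). Colour is log2(CPM + 0.1) minus the gene's mean over all samples, so red is high and blue is low for that gene, with the colour limited to 5 either way. Kif5a, Kif5c, Kif1a and Dync1i1 are low in the 3 paw samples, Klc3 and the 11 mitotic kinesins are high there, and the dynactin genes are highest in DRG.

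The kinesin-1 heavy chains split into a pair that was almost restricted to the nervous tissues and another chain at like levels in all tissues. Kif5a, whose product carries neurofilaments and other axonal cargo, had 8.68, 9.32 and 11.1 CPM in paw, 2120, 1690 and 2370 CPM in DRG, and 1810, 1800 and 2880 CPM in spinal cord. Every paw sample lay far below every nervous tissue sample, and DRG and spinal cord overlapped. Kif5a was lower in paw than in DRG, at a log2 fold change of −7.73 ± 0.27 (212-fold, adjusted p = 1.98e-10) and than in spinal cord, at −7.80 ± 0.27 (223-fold, adjusted p = 1.67e-10). Kif5c, the other neuronal heavy chain, had 5.03, 4.57 and 5.83 CPM in paw, 634, 651 and 729 CPM in DRG, and 675, 744 and 650 CPM in spinal cord. Its log2 fold changes were −7.02 ± 0.15 in paw against DRG and −7.06 ± 0.15 in paw against spinal cord (adjusted p = 1.01e-11 and 8.21e-12). Neither gene was called between DRG and spinal cord, at a log2 fold change of −0.07 ± 0.20 for Kif5a (adjusted p = 0.782) and −0.04 ± 0.11 for Kif5c (adjusted p = 0.781). Kif5b, the heavy chain found in most cell types, had 274, 224 and 208 CPM in paw, 215, 220 and 235 CPM in DRG, and 198, 214 and 212 CPM in spinal cord. It was called in none of the 3 comparisons with edgeR, at log2 fold changes of 0.08 ± 0.11, 0.18 ± 0.11 and 0.10 ± 0.11 (adjusted p = 0.525, 0.144 and 0.435). With upper quartile scaling it was called higher in paw than in spinal cord (0.25, adjusted p = 0.038).

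A ratio of 2 genes within a library does not depend on library scaling, and gene length cancels when such ratios are compared between tissues. The log2 ratio of Kif5a to Kif5b reads was −4.60 ± 0.37 in paw, 3.19 ± 0.22 in DRG and 3.34 ± 0.37 in spinal cord. Paw differed from DRG by −7.79 and from spinal cord by −7.94, with no overlap between samples, and each exact two-sided permutation test gave p = 0.1 (0.107 adjusted over the 15 comparisons of 5 gene pairs described here), the smallest value that 3 against 3 samples allow. DRG differed from spinal cord by −0.15 (exact permutation p = 0.7), and the samples overlapped.

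The kinesin-1 light chains, which bind cargo and hold the motor in check, were also split. Klc1 had 132, 128 and 123 CPM in paw, 1500, 1820 and 1690 CPM in DRG, and 718, 810 and 657 CPM in spinal cord. No 2 tissues overlapped. Klc1 was lower in paw than in DRG, at a log2 fold change of −3.71 ± 0.13 and than in spinal cord, at −2.51 ± 0.12, and DRG lay above spinal cord, at 1.20 ± 0.12 (adjusted p = 2.13e-10, 3.45e-09 and 5.32e-06). Klc2 had 23.6, 24.3 and 25.1 CPM in paw, 352, 502 and 388 CPM in DRG, and 546, 570 and 421 CPM in spinal cord. Its log2 fold changes in paw were −4.09 ± 0.17 against DRG and −4.40 ± 0.17 against spinal cord. Between DRG and spinal cord it was not called (−0.31 ± 0.15, adjusted p = 0.0916), but it was called without DRG 2 (−0.46, adjusted p = 0.00973) and on leaving out spinal cord 3 (−0.43, adjusted p = 0.0161). Klc4 followed Klc1 and Klc2 in paw, at 17.2 ± 1.4 in paw, 44.6 ± 3.76 in DRG and 49.3 ± 3.48 CPM in spinal cord. Klc3 went the other way. This light chain, known from spermatids in rats and mice, had 140, 127 and 131 CPM in paw, 0.715, 0.869 and 0.743 CPM in DRG, and 1.35, 2.1 and 1.72 CPM in spinal cord. Paw lay above DRG, at a log2 fold change of 7.41 ± 0.16 (170-fold, adjusted p = 1.05e-11) and above spinal cord, at 6.25 ± 0.15 (76.4-fold, adjusted p = 1.28e-11).

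**Figure D2:**
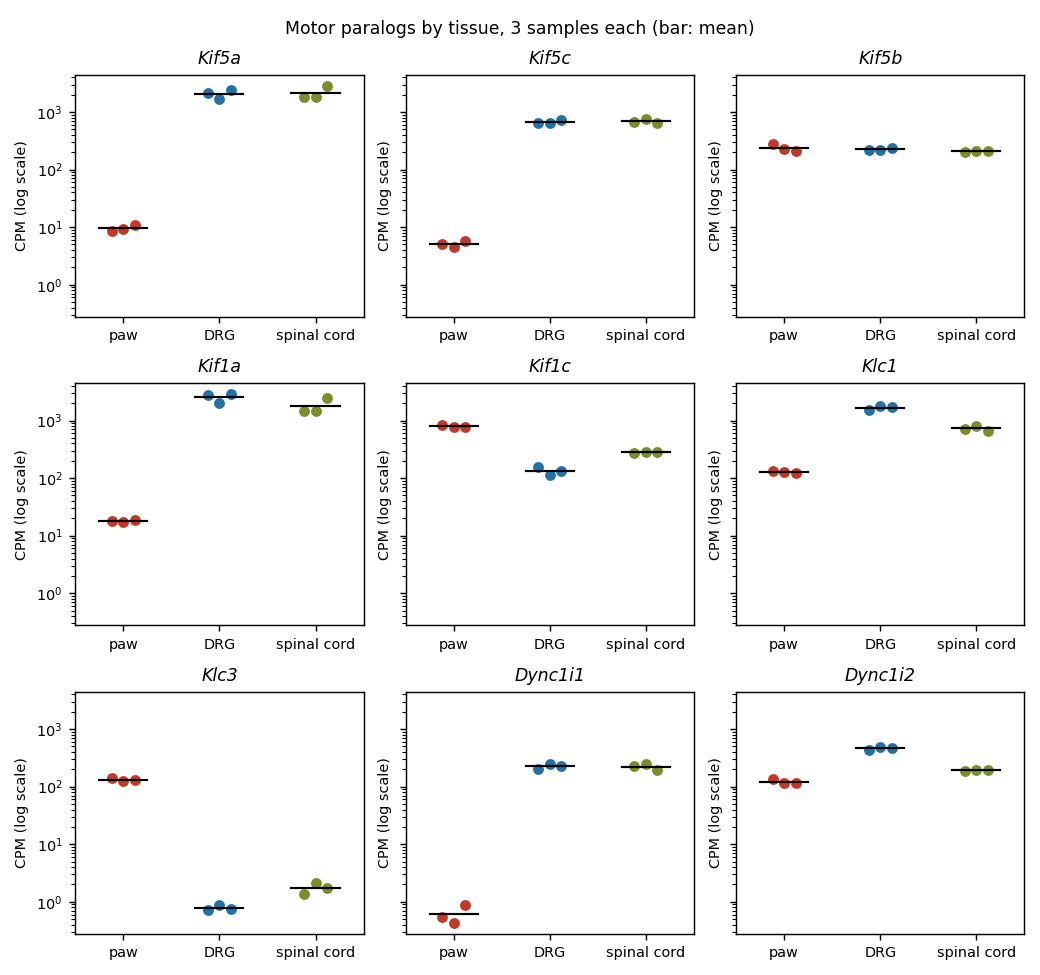
CPM on a shared log axis for 9 motor genes in paw, DRG and spinal cord. Points are samples (3 per tissue) and bars are means. Kif5a, Kif5c, Kif1a and Dync1i1 lie at 0.432 to 18.4 CPM in paw and at 197 CPM or more in the nervous tissues, Klc3 and Kif1c are highest in paw, and Kif5b stays between 198 and 274 CPM in all samples.

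The kinesin-2 group was lower in paw throughout, with all 4 members called in both paw comparisons, where 32.9% of all tested genes were called lower in paw than in both nervous tissues. Kif3a and Kif3b pair into the motor that drives transport into cilia and of some axonal vesicles, and Kif3c is a neuronal partner chain. Kif3c had 14.9, 19.7 and 22.4 CPM in paw, 462, 360 and 497 CPM in DRG, and 220, 220 and 266 CPM in spinal cord. Kif3a had 16.5, 15.6 and 22.7 CPM in paw, 289, 274 and 341 CPM in DRG, and 179, 186 and 170 CPM in spinal cord. For both genes the order was paw, spinal cord, DRG with no overlap. The log2 fold changes of Kif3c were −4.53 ± 0.19 in paw against DRG, −3.63 ± 0.18 in paw against spinal cord and 0.90 ± 0.16 in DRG against spinal cord, and those of Kif3a were −4.04 ± 0.15, −3.29 ± 0.15 and 0.76 ± 0.13. Kif3b was also lower in paw, at a log2 fold change of −1.84 ± 0.14 against DRG and −0.72 ± 0.13 against spinal cord. The log2 ratio of Kif3c to Kif3b was −0.76 ± 0.33 in paw, 1.96 ± 0.06 in DRG and 2.17 ± 0.08 in spinal cord, and no 2 tissues overlapped (exact permutation p = 0.1 in each comparison). Kifap3, the subunit that joins the kinesin-2 heavy chains to cargo, stood at 32.2 ± 2.39 in paw, 367 ± 25.8 in DRG and 267 ± 1.6 CPM in spinal cord. Kif17, a kinesin-2 motor linked to dendritic receptor transport, was highest in spinal cord, at 1.87 ± 0.615 in paw, 3.99 ± 0.124 in DRG and 11.6 ± 0.583 CPM in spinal cord.

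The kinesin-3 members had no common direction. Kif1a, which moves synaptic and dense-core vesicle precursors down axons, had 17.7, 17.2 and 18.4 CPM in paw, 2790, 2000 and 2860 CPM in DRG, and 1480, 1470 and 2490 CPM in spinal cord. It was lower in paw, at a log2 fold change of −7.16 ± 0.28 against DRG and −6.67 ± 0.27 against spinal cord (adjusted p = 4.83e-10 and 6.42e-10). Spinal cord 3 lay above DRG 2, and Kif1a was not called there (0.49 ± 0.21, adjusted p = 0.0619). It was called higher in DRG without spinal cord 3 (0.80, adjusted p = 0.00147) and without DRG 2 (0.64, adjusted p = 0.0295), and also with all samples in the Wald test of DESeq2 (0.48, adjusted p = 0.0424). Kif1b, which carries mitochondria and synaptic vesicle precursors, had 319, 351 and 356 CPM in paw, 1280, 1070 and 1510 CPM in DRG, and 799, 828 and 852 CPM in spinal cord, and was called in all 3 comparisons (log2 fold changes −1.91 ± 0.13, −1.27 ± 0.13 and 0.64 ± 0.13). Kif1c, a more widely expressed relative, was highest in paw, with 844, 783 and 764 CPM in paw, 153, 111 and 131 CPM in DRG, and 276, 282 and 286 CPM in spinal cord. Paw lay above DRG, at a log2 fold change of 2.60 ± 0.13 and above spinal cord, at 1.50 ± 0.12, while DRG lay below spinal cord (−1.10 ± 0.12). The log2 ratio of Kif1a to Kif1c was −5.48 ± 0.10 in paw, 4.27 ± 0.16 in DRG and 2.64 ± 0.41 in spinal cord, again without overlap (exact permutation p = 0.1 in each comparison).

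Kif13a and Kif16b, motors of the endosomal system, were both called higher in paw than in the nervous tissues. Kif13a stood at 116 ± 6.38 in paw, 64.9 ± 15.3 in DRG and 62.2 ± 2.71 CPM in spinal cord. Without DRG 2 it was also called higher in DRG than in spinal cord (0.25, adjusted p = 0.0458). Kif16b stood at 58.1 ± 5.97 in paw, 45 ± 6.55 in DRG and 17 ± 0.286 CPM in spinal cord. Its call in paw against DRG (0.37 ± 0.12, adjusted p = 0.0128) was lost without paw 1 (0.27, adjusted p = 0.066). Kif13b, which binds the scaffold protein Dlg1 and acts in myelination by Schwann cells in mice, had the highest coefficients of variation of any member at 5 CPM or more in that tissue, 60% in DRG and 75.6% in spinal cord. It had 50.8, 40.7 and 36.6 CPM in paw, 119, 27.1 and 119 CPM in DRG, and 14.8, 9.75 and 40.2 CPM in spinal cord. DRG 2 thus lay below spinal cord 3. The call of Kif13b in DRG against spinal cord (2.05 ± 0.69, adjusted p = 0.0362) was lost under 11 of 18 alternative settings, among them leaving out any 1 library other than DRG 2 and spinal cord 3 (adjusted p = 0.0527 to 0.122). Without spinal cord 3 it was 2.87 (adjusted p = 0.0155). Without DRG 2, Kif13b was called lower in paw than in DRG (−1.46, adjusted p = 0.0401), where it had not been called with all samples (−1.05 ± 0.67, adjusted p = 0.183). Dropping both DRG 2 and spinal cord 3 was a setting chosen after seeing the data. There Kif13b was called lower in paw than in DRG (−1.46, adjusted p = 2.22e-05) and higher than in spinal cord (1.82, adjusted p = 1.26e-05). Kif1a, Kif5a, Kif19a and Dync1h1 were also lowest in DRG 2 and highest in spinal cord 3. Klc1, Klc2, Dctn2 and Dynll2 had the reverse. Of all 58 tested members, 25 were highest and 23 lowest in DRG 2. Summed Schwann and satellite glia markers stood at 28200, 21200 and 21700 CPM in DRG 1 to 3 and at 8470, 8540 and 13600 CPM in spinal cord 1 to 3, and their part in these differences was not tested.

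**Figure D3:**
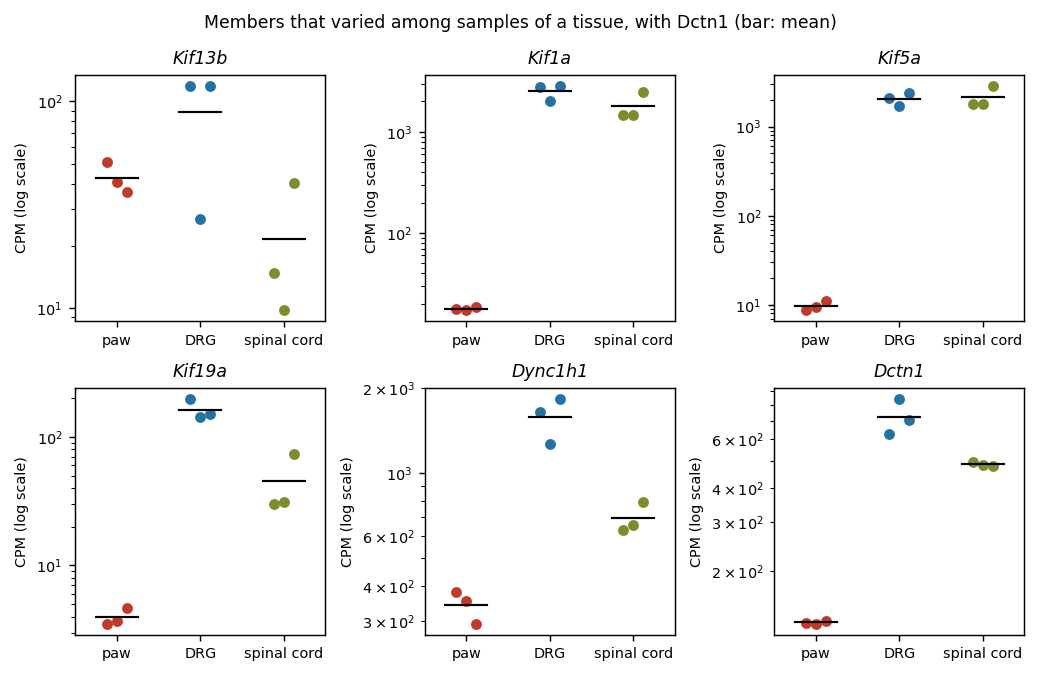
CPM on log axes, scaled separately for each gene, for 5 genes that differed among samples of a tissue and for Dctn1. Points are samples and bars are means. In Kif13b, DRG 2 (27.1 CPM) stands apart from the other DRG samples (119 CPM each), and spinal cord 3 is the highest spinal cord sample for Kif13b, Kif1a, Kif5a, Kif19a and Dync1h1. The same 5 genes are lowest in DRG 2 among the DRG samples, where Dctn1 is highest.

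Among kinesins that act at microtubule ends or as signalling scaffolds, the members with the most reads were highest in DRG. Kif21a, which slows microtubule growth at the cell edge and is mutated in human congenital fibrosis of the eye muscles, had 125, 113 and 92.9 CPM in paw, 606, 660 and 709 CPM in DRG, and 226, 231 and 219 CPM in spinal cord. It was lower in paw, at a log2 fold change of −2.58 ± 0.12 against DRG and −1.03 ± 0.12 against spinal cord, and higher in DRG than in spinal cord, at 1.55 ± 0.12. Its relative Kif21b had the other order in the nervous tissues, at 16 ± 3.32 in paw, 33.3 ± 4.21 in DRG and 114 ± 21.9 CPM in spinal cord. DRG lay below spinal cord (−1.78 ± 0.17). Kif19a, a depolymerase that limits the length of motile cilia in mice, had 3.53, 3.7 and 4.65 CPM in paw, 197, 142 and 151 CPM in DRG, and 30.2, 31.4 and 73.7 CPM in spinal cord. DRG lay above spinal cord, at a log2 fold change of 1.86 ± 0.34 (adjusted p = 0.00136) and paw below DRG, at −5.36 ± 0.42 (adjusted p = 2.57e-06). This order was not that of the motile cilia genes given below, which were highest in spinal cord. Kif26b, a family member without motor activity that acts in Wnt5a signalling, was also highest in DRG, with 3.47, 2.84 and 2.83 CPM in paw, 24.6, 17.7 and 29.6 CPM in DRG, and 3.95, 3.45 and 5.34 CPM in spinal cord. Kif26a, which restrains signalling by the GDNF receptor in enteric neurons of mice, was highest in paw at 20.3 ± 1.57 CPM, against 11 ± 1.4 in DRG and 14.3 ± 0.973 CPM in spinal cord. Its call in DRG against spinal cord was lost on leaving out spinal cord 3, DRG 1 or DRG 3 (adjusted p = 0.0648, 0.0554 and 0.0956). Kif2a, a microtubule depolymerase that trims axon branches, stood at 29.8 ± 1.59 in paw, 110 ± 5.19 in DRG and 71.4 ± 2.2 CPM in spinal cord. Kif24, a depolymerase at the base of the cilium, was highest in paw at 4.53 ± 0.257 CPM, against 1.13 ± 0.23 in DRG and 0.9 ± 0.399 CPM in spinal cord.

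**Figure D4:**
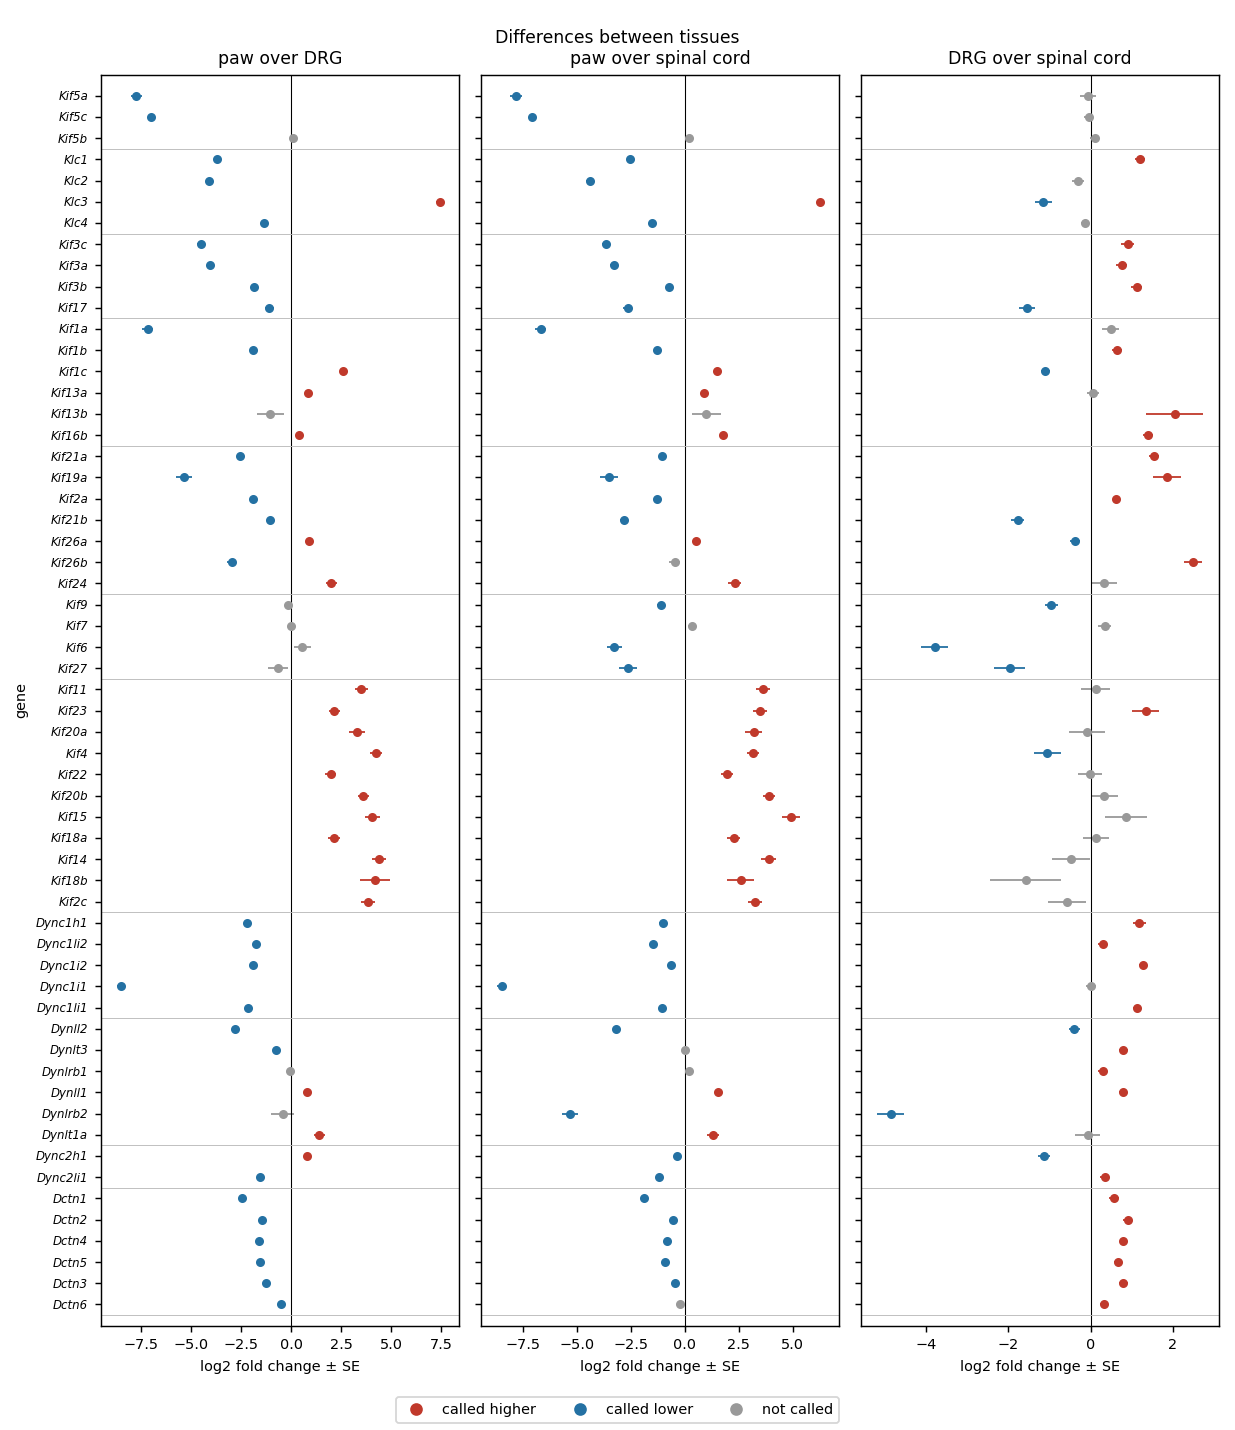
Log2 fold changes of the 58 tested motor genes, with standard errors, for paw over DRG, paw over spinal cord and DRG over spinal cord (3 samples per tissue, separate x axes). Red points were called higher and blue points lower in the first tissue, and grey points were not called. The 11 mitotic kinesins are red in both paw panels, while the 6 dynactin genes are blue in paw over DRG and red in DRG over spinal cord.

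Kif9, Kif6, Kif27 and Dynlrb2, which act in motile cilia or have been linked to them, were highest in spinal cord, which has ependymal cells with such cilia along its canal. Kif19a, given above, was not. Kif9, which acts in cilium beating, had 3.77, 4.32 and 4.24 CPM in paw, 4.02, 5.21 and 4.51 CPM in DRG, and 9.2, 7.79 and 9.76 CPM in spinal cord. Kif6, needed for ependymal cilia in mice, had 0.479, 0.494 and 0.766 CPM in paw, 0.626, 0.193 and 0.347 CPM in DRG, and 6.1, 4.95 and 5.68 CPM in spinal cord. For both genes every spinal cord sample lay above all others. Kif6 was lower in DRG than in spinal cord, at a log2 fold change of −3.80 ± 0.33 (adjusted p = 1.76e-06) and in paw than in spinal cord, at −3.25 ± 0.33 (adjusted p = 1.96e-06), and Kif9 likewise, at −0.96 ± 0.16 and −1.11 ± 0.16. Kif27, a relative of Kif7 that acts in motile cilia of mice, and Dynlrb2, a dynein light chain of the roadblock type, were likewise highest in spinal cord. Kif27 stood at 0.403 ± 0.135 in paw, 0.637 ± 0.222 in DRG and 2.52 ± 1.09 CPM in spinal cord. Dynlrb2 had 4 reads over paw, 7 over DRG and 201 over spinal cord. Of these genes, none was called between paw and DRG, where 80.5% of all tested genes were called. Reads there were few: 29 in paw and 25 in DRG for Kif6, 20 and 40 for Kif27, and 4 and 7 for Dynlrb2. The lack of a call thus does not show equal levels in these genes. Adjusted p was 0.411 for Kif9, 0.242 for Kif6, 0.236 for Kif27 and 0.634 for Dynlrb2. Without DRG 1, Kif6 was called higher in paw (1.09, adjusted p = 0.0404). Kif7, which sits at the tip of the primary cilium in hedgehog signalling, was called in no comparison. Kif7 had 6.05, 6.17 and 6.48 CPM in paw, 6.61, 6.03 and 6.19 CPM in DRG, and 4.7, 4.39 and 5.86 CPM in spinal cord. Without spinal cord 3 it was called higher in paw (0.49, adjusted p = 0.0165) and in DRG (0.48, adjusted p = 0.0259) than in spinal cord. A list of 14 axonemal dynein and motile cilia genes had 13 tested members. Of these, 12 were lower in paw than in spinal cord, as were 41.7% of all tested genes. In DRG, 13 were lower than in spinal cord, as were 30.6% of all tested genes. Summed levels of the 14 genes were 4.2 to 5.77 in paw, 42.3 to 49.9 in DRG and 123 to 161 CPM in spinal cord. Most of the sum in DRG came from the transcription factor Foxj1, which stood at 0.199 ± 0.206 in paw, 31.5 ± 3.56 in DRG and 59.9 ± 7.46 CPM in spinal cord. Without Foxj1 the other 13 genes summed to 4.01 to 5.36 in paw, 14.3 to 18.2 in DRG and 65 to 93.4 CPM in spinal cord. A list of 5 ependymal markers shares Foxj1 and Rsph1 with these genes, and its 4 genes other than Foxj1 summed to 0.802 to 1.65 in paw, 3.4 to 3.81 in DRG and 31.3 to 45.2 CPM in spinal cord. Of its defining markers, Ccdc153 had 0 reads in paw, 1 read in DRG and 12.1 ± 2.57 CPM in spinal cord. The part of ependymal cells in the kinesin levels was not tested.

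All 11 tested mitotic kinesins were called higher in paw than in DRG and than in spinal cord, where 39.7% and 39.9% of all tested genes were called higher in paw. Their median log2 fold changes were 3.59 and 3.26, while the median of all tested genes lay at −0.02 and −0.03. Kif11, which slides spindle microtubules apart, had 32, 26.2 and 31.5 CPM in paw, 2.06, 3.09 and 2.77 CPM in DRG, and 4.1, 1.45 and 1.72 CPM in spinal cord. Paw lay above DRG, at a log2 fold change of 3.50 ± 0.31 (11.3-fold, adjusted p = 1.48e-06) and above spinal cord, at 3.62 ± 0.32 (12.3-fold, adjusted p = 1.2e-06). Kif23, the centralspindlin motor of cell division, had 22.2, 22.9 and 16.4 CPM in paw, 4.25, 4.68 and 5 CPM in DRG, and 3.1, 1.07 and 1.32 CPM in spinal cord. Kif15, which backs up Kif11 in the spindle, had 11.3, 11.5 and 12.8 CPM in paw, 0.849, 0.579 and 0.693 CPM in DRG, and 0.8, 0.28 and 0.0574 CPM in spinal cord. Kif14, which acts in the last step of division, had 5.57, 7.78 and 6.54 CPM in paw, 0.268, 0.386 and 0.297 CPM in DRG, and 0.75, 0.28 and 0.287 CPM in spinal cord. In each of these genes every paw sample lay above every other sample. The largest log2 fold changes of the group were 4.36 ± 0.35 for Kif14 against DRG and 4.91 ± 0.41 for Kif15 against spinal cord, and the smallest were 1.97 ± 0.27 and 1.96 ± 0.27 for Kif22, which pushes chromosome arms. The Kif15 value against spinal cord rested on 16, 6 and 1 reads in spinal cord 1 to 3 and was 6.02 without spinal cord 1. Kif4, Kif18a, Kif18b, Kif20a, Kif20b and Kif2c lay in between. Kif4b, a copy of Kif4, had 2 reads in all. Of 16 other proliferation genes, 15 were higher in paw than in DRG and 16 higher than in spinal cord, and their part in the kinesin levels was not tested. The proliferation marker Mki67 stood at 164 ± 11.8 in paw, 3.57 ± 1.04 in DRG and 7.11 ± 8.85 CPM in spinal cord. Aurka was the gene not called between paw and DRG (−0.08 ± 0.25, adjusted p = 0.78). Cenpe, the kinesin of kinetochores whose symbol lies outside the Kif names, was higher in paw, at a log2 fold change of 3.70 ± 0.26 against DRG and 3.32 ± 0.26 against spinal cord.

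Within spinal cord, 10 of the 11 mitotic kinesins were highest in sample 1, against 14 of all 58 tested members, these 10 included. The 16 other proliferation genes summed to 83.6 CPM in spinal cord 1, against 28.7 and 24.3 CPM in samples 2 and 3. Markers of marrow and red cells summed to 775, 200 and 234 CPM in the same samples, and their part in the kinesin levels was not tested. Between DRG and spinal cord, 2 of the 11 (18.2%) were called, against 59.6% of all tested genes. Mean levels of the 11 in these tissues were low, at most 4.64 CPM (Kif23 in DRG). Kif23 was called higher (1.34 ± 0.32) and Kif4 lower in DRG (−1.05 ± 0.33, adjusted p = 0.0174). The Kif4 call was lost without spinal cord 1 or either DRG 1 or DRG 3 (adjusted p = 0.087, 0.0678 and 0.0569). Leaving out spinal cord 1 moved the fold itself, not its log2, by over 1.5 times for called differences against spinal cord in 7 of the 11 genes. All moved to larger differences. In paw, log2 fold changes became 4.26 for Kif11, 4.12 for Kif23, 4.53 for Kif14, 3.96 for Kif20a, 3.85 for Kif2c and 4.25 for Kif18b, besides Kif15. In DRG, that of Kif23 became 1.96. In the same setting, Kif11 (0.74, adjusted p = 0.021) and Kif15 (1.95, adjusted p = 0.00549) were called higher in DRG, and without spinal cord 2 Kif18b was called lower (−2.14, adjusted p = 0.0141).

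**Figure D5:**
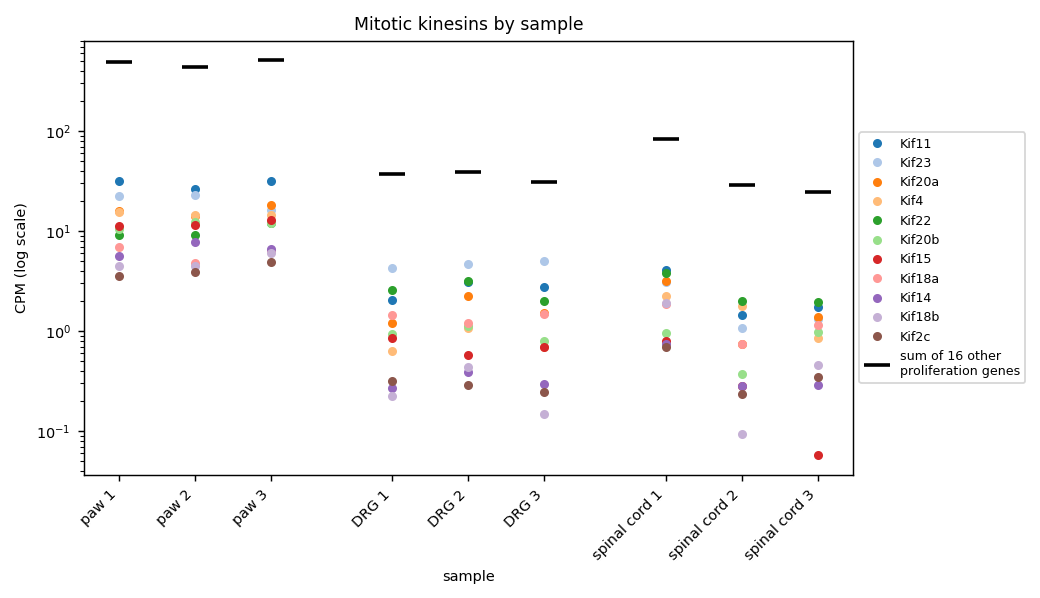
CPM on a log axis of the 11 tested mitotic kinesins (points) in each of the 9 samples, with the sum of 16 other proliferation genes (black bars). The paw samples lie above the DRG and spinal cord samples for every kinesin, and in spinal cord the bar of sample 1 (83.6 CPM) is above those of samples 2 and 3.

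Since the mitotic kinesins moved together, their promoters are shown with the letters of 2 motifs found at many cell cycle genes. TTTGAA is the core of the cell cycle homology region, and CCAAT is bound by the factor NF-Y. RefSeq sequences on GRCm38.p6, from 250 bases before a gene's start to 50 bases after it, were found for 49 of the 65 members and for 10 of the 12 mitotic kinesins. The mm9 build named in the submitters' processing notes differs, so genes were matched by symbol. Searched on both strands, TTTGAA was found in 9 of the 10 mitotic promoters, against 17.9% of all 32851 promoters in the table and 4 of 46 promoters of the other members. Within 60 bases upstream of the start or downstream of it, 7 of the 10 held it, against 5.5% of all promoters. CCAAT was found in 6 of the 10, against 37.4% of all promoters, and both motifs in 6 of the 10, against 6.95%. A match describes these letters only and is not evidence that a factor binds there. Shown 5′ to 3′ on the gene's strand, with every TTTGAA and CCAAT match on either strand in capitals (TTCAAA and ATTGG are matches on the opposite strand), are the 4 mitotic kinesins with the most reads among those with a TTTGAA near the start. They are followed by the paw light chain Klc3 and by Dync1i1, which was low in paw.
Kif11, chr19:37376132-37376431, plus strand: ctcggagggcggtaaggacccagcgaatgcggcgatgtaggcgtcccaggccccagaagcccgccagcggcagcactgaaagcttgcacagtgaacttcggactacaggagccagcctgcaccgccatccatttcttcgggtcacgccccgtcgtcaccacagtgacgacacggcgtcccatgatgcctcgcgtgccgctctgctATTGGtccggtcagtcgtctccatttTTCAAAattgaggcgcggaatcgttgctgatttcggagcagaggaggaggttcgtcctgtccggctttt
Kif23, chr9:61946750-61947049, minus strand: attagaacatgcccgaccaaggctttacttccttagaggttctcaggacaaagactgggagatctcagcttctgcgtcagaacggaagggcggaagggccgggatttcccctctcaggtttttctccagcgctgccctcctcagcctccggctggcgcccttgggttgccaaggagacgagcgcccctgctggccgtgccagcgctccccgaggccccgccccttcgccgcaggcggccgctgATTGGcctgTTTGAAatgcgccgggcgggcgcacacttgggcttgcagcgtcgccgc
Kif4, chrX:100625815-100626114, plus strand: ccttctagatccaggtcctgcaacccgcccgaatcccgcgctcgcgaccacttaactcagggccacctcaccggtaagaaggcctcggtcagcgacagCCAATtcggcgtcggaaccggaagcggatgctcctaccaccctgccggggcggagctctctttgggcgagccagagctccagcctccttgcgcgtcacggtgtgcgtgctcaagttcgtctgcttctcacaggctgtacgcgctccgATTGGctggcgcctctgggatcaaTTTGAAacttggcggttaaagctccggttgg
Kif22, chr7:127042371-127042670, minus strand: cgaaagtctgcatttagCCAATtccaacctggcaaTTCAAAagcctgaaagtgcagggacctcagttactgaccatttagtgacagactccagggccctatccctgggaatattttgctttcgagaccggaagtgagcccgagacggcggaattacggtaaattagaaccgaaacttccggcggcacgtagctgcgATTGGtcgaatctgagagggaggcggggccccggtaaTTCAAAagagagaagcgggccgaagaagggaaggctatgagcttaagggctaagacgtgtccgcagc
Klc3, chr7:19404055-19404354, minus strand: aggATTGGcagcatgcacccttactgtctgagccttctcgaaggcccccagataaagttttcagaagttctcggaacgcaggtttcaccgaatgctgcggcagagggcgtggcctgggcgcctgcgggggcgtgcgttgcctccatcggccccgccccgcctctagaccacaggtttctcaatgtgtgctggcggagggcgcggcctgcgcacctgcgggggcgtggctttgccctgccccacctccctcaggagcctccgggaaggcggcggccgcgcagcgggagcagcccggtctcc
Dync1i1, chr6:5725389-5725688, plus strand: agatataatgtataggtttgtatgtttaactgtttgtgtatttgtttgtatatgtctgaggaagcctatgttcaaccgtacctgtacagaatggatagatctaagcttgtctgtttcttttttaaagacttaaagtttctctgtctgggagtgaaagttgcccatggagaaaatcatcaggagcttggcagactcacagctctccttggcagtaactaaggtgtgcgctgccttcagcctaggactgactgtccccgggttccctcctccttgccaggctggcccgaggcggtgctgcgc
In Kif11 the TTTGAA match nearest the start began 19 bases before the start and in Kif22 17 bases before it, while in Kif23 and Kif4 it began 2 and 19 bases after it. Each of these 4 promoters also held CCAAT on its opposite strand within 60 bases of the start. Klc3 held a CCAAT match 247 bases before the start and no TTTGAA, and Dync1i1 held neither.

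All 5 core chains of cytoplasmic dynein 1 were called lower in paw than in both nervous tissues, as were 32.9% of all tested genes. In DRG, 4 of the 5 were called higher in DRG than in spinal cord, where 29% of all tested genes were called higher in DRG. Dync1h1, the motor-bearing heavy chain, had 380, 353 and 294 CPM in paw, 1650, 1270 and 1830 CPM in DRG, and 630, 656 and 794 CPM in spinal cord. It was lower in paw than in DRG, at a log2 fold change of −2.21 ± 0.17 and than in spinal cord, at −1.02 ± 0.16, and higher in DRG than in spinal cord, at 1.19 ± 0.16 (adjusted p = 1.57e-07, 9.92e-05 and 6.32e-05). Dync1li2, a light intermediate chain that binds cargo adaptors, had 127, 129 and 133 CPM in paw, 434, 384 and 487 CPM in DRG, and 341, 351 and 374 CPM in spinal cord. Its difference between DRG and spinal cord (0.29 ± 0.10, adjusted p = 0.0283) lost its call when DRG 1, DRG 3 or spinal cord 1 or 2 was left out (adjusted p = 0.0581, 0.129, 0.0983 and 0.0894). Dync1li1, the other light intermediate chain, stood at 39.5 ± 4.24 in paw, 178 ± 15 in DRG and 81.2 ± 4.97 CPM in spinal cord.

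The dynein intermediate chains, which join the heavy chain to dynactin, differed from each other. Dync1i1, the chain found mainly in neurons, had 0.539, 0.432 and 0.883 CPM in paw, 202, 249 and 226 CPM in DRG, and 226, 246 and 197 CPM in spinal cord. It was lower in paw, at a log2 fold change of −8.49 ± 0.20 against DRG (359-fold, adjusted p = 1.5e-11) and −8.47 ± 0.20 against spinal cord (356-fold, adjusted p = 1.38e-11), the widest differences of any tested member. Its counts in paw were 31 reads over the 3 libraries. DRG and spinal cord overlapped, and Dync1i1 was not called between them (0.01 ± 0.13). Dync1i2, the ubiquitous chain, stood at 121 ± 10.4 in paw, 461 ± 32 in DRG and 191 ± 5.11 CPM in spinal cord. DRG lay above spinal cord, at a log2 fold change of 1.27 ± 0.10. The log2 ratio of Dync1i1 to Dync1i2 was −7.60 ± 0.53 in paw, −1.03 ± 0.06 in DRG and 0.22 ± 0.16 in spinal cord, so the 3 tissues did not overlap (exact permutation p = 0.1 in each comparison).

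The light chains of dynein had no common direction. Dynll1 and Dynll2 encode the LC8 chains, small dimers that also bind many proteins outside dynein. Dynll2 had 130, 134 and 150 CPM in paw, 865, 1030 and 991 CPM in DRG, and 1320, 1440 and 1070 CPM in spinal cord. Dynll1 had the reverse order, with 172, 177 and 196 CPM in paw, 107, 100 and 111 CPM in DRG, and 60.4, 57.5 and 67.5 CPM in spinal cord. No 2 tissues overlapped in either gene. In paw against spinal cord the log2 fold change was −3.20 ± 0.14 for Dynll2 and 1.55 ± 0.09 for Dynll1 (adjusted p = 1.41e-09 and 2.16e-08). The log2 ratio of Dynll2 to Dynll1 was −0.39 ± 0.01 in paw, 3.18 ± 0.17 in DRG and 4.36 ± 0.34 in spinal cord, with exact permutation p = 0.1 in each comparison. The call of Dynll2 in DRG against spinal cord (−0.40 ± 0.13, adjusted p = 0.0203) was lost when DRG 1 or spinal cord 1 or 2 was left out (adjusted p = 0.0836, 0.0717 and 0.0673). Dynlt3, a light chain of the Tctex type, was highest in DRG, with 263, 240 and 236 CPM in paw, 387, 446 and 429 CPM in DRG, and 234, 263 and 230 CPM in spinal cord. Dynlrb1, the common roadblock chain, stood at 136 ± 2.35 in paw, 144 ± 10.8 in DRG and 116 ± 16.1 CPM in spinal cord. Its call in DRG against spinal cord (0.30, adjusted p = 0.0279) was lost on leaving out spinal cord 1, spinal cord 3 or DRG 2 (adjusted p = 0.0701, 0.0712 and 0.0711), and without DRG 2 or spinal cord 2 it was called higher in paw than in spinal cord (adjusted p = 0.0331 and 0.00738), as it was with all samples by DESeq2 (0.24, adjusted p = 0.0426). Dynlt1a stood at 1.89 ± 0.292 in paw, 0.708 ± 0.0894 in DRG and 0.747 ± 0.175 CPM in spinal cord, a level that is uncertain because of its near-identical copies.

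Dynein 2, which returns cargo from the tip of cilia, had its chains in different orders. Dync2h1, its heavy chain, had 29.6, 21.5 and 20.1 CPM in paw, 13.5, 15.7 and 12.3 CPM in DRG, and 30.1, 30 and 31.5 CPM in spinal cord. Paw lay above DRG, at a log2 fold change of 0.78 ± 0.15 and DRG below spinal cord, at −1.14 ± 0.15. Its call in paw against spinal cord (−0.36 ± 0.15, adjusted p = 0.0379) was lost without any of paw 2, paw 3 or the 3 spinal cord samples (adjusted p = 0.0774 to 0.162). With all samples it was also lost under DESeq2 size factors, the Wald test of DESeq2 and upper quartile scaling (adjusted p = 0.0528, 0.0593 and 0.0759). Dync2li1, its light intermediate chain, had 6.94, 7.65 and 6.83 CPM in paw, 21.9, 21.7 and 18.6 CPM in DRG, and 15.9, 16.5 and 16.8 CPM in spinal cord. It was lower in paw than in DRG (−1.54 ± 0.12) and than in spinal cord (−1.20 ± 0.12), and its call in DRG against spinal cord (0.34 ± 0.11, adjusted p = 0.0187) was lost on leaving out spinal cord 1, DRG 1 or DRG 2 (adjusted p = 0.0658, 0.0687 and 0.0548). Of 14 genes for ciliary transport trains and other dynein 2 chains, 1 was higher and 9 lower in paw than in DRG. In DRG, 5 were higher and 5 lower than in spinal cord. Each is 71.4% called, against 80.5% and 59.6% of all tested genes. In paw, 2 were higher and 12 lower than in spinal cord, so all 14 were called there (100%, against 81.6%).

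The 6 dynactin members moved together. All 6 were called lower in paw than in DRG, where 40.8% of all genes were called lower, and all 6 were called higher in DRG than in spinal cord, where 29% were called higher in DRG. Dctn1, which encodes p150Glued, the subunit that grips microtubules and dynein, had 130, 129 and 132 CPM in paw, 629, 841 and 707 CPM in DRG, and 497, 485 and 479 CPM in spinal cord. It was lower in paw than in DRG, at a log2 fold change of −2.48 ± 0.12 (adjusted p = 2.87e-09) and than in spinal cord, at −1.90 ± 0.12 (adjusted p = 2.3e-08), and higher in DRG than in spinal cord, at 0.57 ± 0.11 (adjusted p = 0.000989). Dctn2, the dynamitin subunit of the shoulder, had 205, 207 and 198 CPM in paw, 506, 616 and 537 CPM in DRG, and 294, 323 and 272 CPM in spinal cord. Dctn4, of the pointed end, had 75.8, 68.4 and 69.7 CPM in paw, 211, 218 and 226 CPM in DRG, and 126, 126 and 127 CPM in spinal cord. No 2 tissues overlapped in these 3 genes. Dctn3 of the shoulder and Dctn5 and Dctn6 of the pointed end had the same order of means, with log2 fold changes of −1.26 ± 0.11, −1.57 ± 0.10 and −0.53 ± 0.10 in paw against DRG. Dctn6 was not called between paw and spinal cord (−0.20 ± 0.10, adjusted p = 0.0974), but was called without spinal cord 3 (−0.25, adjusted p = 0.0214). Against spinal cord, the DRG fold changes of the group were between 0.33 ± 0.10 for Dctn6 and 0.90 ± 0.11 for Dctn2. Of 8 pan-neuronal genes, 6 were likewise higher and 1 lower in DRG than in spinal cord, with a median log2 fold change of 1.57, and their part in the dynactin levels was not tested. Of 6 further subunits of dynactin, 4 were lower in paw than in DRG and none higher, and 2 were higher in DRG than in spinal cord. Actr1a, which forms the dynactin filament, stood at 238 ± 24.6 in paw, 540 ± 44.8 in DRG and 306 ± 23.1 CPM in spinal cord.

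Genes for cargo adaptors and motor regulators, which are not members, had 23 tested entries, of which 7 were higher and 15 lower in paw than in DRG. Against spinal cord 7 were higher and 16 lower in paw, and between DRG and spinal cord 8 were higher and 7 lower in DRG. The shares called were 95.7%, 100% and 65.2%, against 80.5%, 81.6% and 59.6% of all tested genes. Mapk8ip3, a kinesin-1 and dynein adaptor of axons, stood at 75.2 ± 2.25 in paw, 788 ± 48.1 in DRG and 717 ± 88.1 CPM in spinal cord. Hap1, which links huntingtin to both motors, stood at 2.54 ± 0.513 in paw, 14 ± 2.05 in DRG and 420 ± 38 CPM in spinal cord. DRG lay below spinal cord, at a log2 fold change of −4.91 ± 0.15 (adjusted p = 5.13e-10). Hook1, an activating adaptor of dynein, was highest in paw at 78.6 ± 18 CPM, against 4.24 ± 0.542 in DRG and 10.9 ± 0.521 CPM in spinal cord. Kifc1, Kifc2, Kifc3 and Cenpe, kinesins whose symbols lie outside the rule, were all called between paw and DRG, as were 80.5% of all tested genes. Of them, 3 were higher and Kifc2 lower in paw (−3.32 ± 0.15).

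Levels can be compared between members only per length. With the exon length of each gene in GENCODE M21 on GRCm38, whose gene models may differ from those counted, Dynlrb1 ranked first in paw at 136 ± 2.5 CPM per kb. Dctn2 (114 ± 2.6), Dynlt3 (113 ± 6.7) and Kif1c (110 ± 5.7 CPM per kb) followed and did not differ beyond their spread. In DRG, Klc1 ranked first at 536 ± 52 CPM per kb, before Dynll2 (352 ± 32), Dctn2 (310 ± 32), Kif5a (295 ± 49) and Kif1a (294 ± 55), whose ranges ran into each other. In spinal cord, Dynll2 came first at 467 ± 69 CPM per kb, followed by Kif5a (309 ± 89), Klc1 (234 ± 25) and Kif1a (209 ± 68 CPM per kb). This order did not hold in every sample, since in spinal cord 3 Kif5a (412) lay above Dynll2 (391) and Kif1a (287) above Klc1 (211 CPM per kb). Kif5a thus ranked 44 in paw, 4 in DRG and 2 in spinal cord, and Klc3 ranked 6 in paw, 47 in DRG and 44 in spinal cord.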

How the data were processed

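RNA from 3 tissues was sequenced as 50 bp single-end reads from libraries made of about 500 ng total RNA with oligo-dT selection and a dUTP stranded kit, per the labels' protocols. The submitters' processing notes name TopHat2, HTSeq, bcl2fastq and the mm9 build. Tool versions, gene models and strandedness in counting were not given in the sources used here, which leaves overlapping and antisense genes uncertain. What the authors deposited was a raw count for each gene symbol, 1 file per library, with 5 summary lines for unassigned reads, which held 42.9 to 59.3% of each total (31.9 to 47.6% were alignments to several places) and were left out.

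Tissue, from the sample titles, set the groups. No library repeated another: chi-square divided by its degrees of freedom was 7.3 to 36.7 between libraries of the same tissue. Counts of all 9 libraries were fitted with tissue as the factor (residual degrees of freedom: 6) using edgeR 4.0.16 (R 4.3.3), with filterByExpr, TMM scaling and the robust quasi-likelihood test; 16091 genes were tested. The standard error is the fold change divided by the square root of F. CPM uses TMM library sizes, and counting floors cover counting error only. Ratios used reads plus 0.5. The functions were tested on simulated counts. Alternatives were DESeq2 1.42.0 and its size factors, upper quartile scaling, limma-voom (limma 3.58.1), no low-count filter, 2-tissue fits, a replicate block and leaving out libraries.

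The members, their role groups, the lists and the tests were chosen with earlier results of these data known. Values per sample are given for the 2 members of a role group with most reads and the 2 with the largest called fold change at 5 CPM or more. Other members are given by level, fold change, count or place in a stated range. Up to 3 genes of each of 6 pathway lists are given likewise. Kif5b, Kif13b, Aurka and the libraries named beside lost calls were chosen after their values were seen. For the list entry Spdl1 the older symbol Ccdc99 was used, and Kif4b and Dynlt1e were added to the role groups from the files. Of 13 marker lists, those that bear on a result or on the make-up of the samples are given.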

Additional observations from a re-analysis of the deposited data

How the results depend on the processing

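The counts of members called kept within 1.5 times under all 18 alternatives. With 1 library left out, members higher in paw numbered 19 to 21 against DRG (20 with all libraries) and 19 to 20 against spinal cord (19), those lower 30 to 31 (30) and 31 to 32 (32), and in DRG against spinal cord 23 to 27 were higher (26) and 9 to 13 lower (12). Of 3126 member fold changes under the alternatives, 51 lost a call, 38 gained one and 49 that were called in neither setting turned sign. A further value turned sign and gained a call: Kif20a, not called in DRG against spinal cord with all libraries (−0.09, adjusted p = 0.878), was called higher at 1.15 (adjusted p = 0.0471) when both spinal cord 1 and spinal cord 3 were dropped, a setting chosen after seeing the data. No call changed for 55 of 58 members in paw against DRG, 51 in paw against spinal cord and 40 in DRG against spinal cord. The Kif5a to Kif5b log2 ratio in DRG against spinal cord ran between −0.29 and 0.06 with 1 library left out, with its sign turned without spinal cord 3. The cause was not tested. Replicate numbers are shared between tissues, but same-numbered libraries did not deviate together (r = −0.13 to 0.27) and 3 of 18 best matches were to the own number. With the replicate block, 20 members were higher and 30 lower in paw against DRG, 20 and 33 in paw against spinal cord, and 27 and 12 in DRG against spinal cord. The block added the calls of Kif1a in DRG against spinal cord (0.51, adjusted p = 0.0276) and, in paw against spinal cord, of Dynlrb1 (0.23, adjusted p = 0.0438) and Kif26b (−0.46, adjusted p = 0.046). With 3 libraries a tissue, levels near 0.134 to 0.185 CPM rest on about 3 reads.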
